A study of Mus musculus with 15 samples.

Results

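The growth hormone to STAT5 pathway and its feedback genes were followed in single mouse kidney tubules and in whole kidney. Its 9 genes were chosen by symbol from the 47069 genes of the table: the receptors Ghr and Prlr, the kinase Jak2, the transcription factors Stat5a and Stat5b, and the feedback genes Cish, Socs2, Socs3 and Bcl6. They came to notice through differences of Cish, Socs2 and Bcl6 among the tubule sets, so values by set are described here without a test. The 15 libraries, from C57BL/6 males 2 months old, comprised 3 of whole kidney and 12 of single microdissected proximal tubules labelled PTS2. The tubules formed 3 sets of 4, which the labels call m1, m2 and m3. The labels give no treatment and do not state what m stands for, or whether tubules of a set shared an animal. The p-values below therefore measure the spread between these libraries, which may be technical, and set cannot be told apart from animal, day or dissection. Values are TPM, a unit of transcript abundance scaled to transcript length and to a common total that keeps no sequencing depth.

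Growth hormone binds its receptor GHR on the cell surface, and the attached kinase JAK2 then phosphorylates STAT5A and STAT5B, which move to the nucleus and switch on target genes. Among the fast targets are Cish and Socs2, whose proteins bind the activated receptor and end the signal. BCL6 is a repressor that binds similar DNA sites to STAT5 and is known to be lowered by growth hormone in liver. In the kidney, growth hormone receptors sit mainly on proximal tubule cells, where the hormone is known to act on phosphate uptake and gluconeogenesis.

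The tubules carried markers of the S2 and S3 segments, and in each the S3 sum was above the S2 sum although the label reads PTS2. The S3 markers Slc7a13 and Slc22a7 summed to between 2011 and 3699 TPM in the 12 tubules and to between 935 and 1209 TPM in whole kidney. The S2 markers Slc22a6 and Slc22a8 summed to between 368 and 1149 TPM in tubules and to between 719 and 781 TPM in whole kidney. These 2 genes went apart: Slc22a6 had a median of 591 TPM in tubules against 435 to 512 TPM in whole kidney, and Slc22a8 was at most 161 TPM in tubules against at least 261 TPM. The S1 markers Slc5a2 and Slc5a12 summed to at most 1.49 TPM in tubules. Markers of the distal convoluted tubule, intercalated cells and podocytes were at most 0.54 TPM in any tubule. Endothelial markers had a median sum of 16.3 TPM in tubules (13.2% of the kidney mean) and macrophage markers one of 43.9 TPM (56.2%). Most of the latter was Csf1r, with a median of 38.5 TPM in tubules against 18.3 to 23.5 TPM in whole kidney, while C1qa, C1qb and Adgre1 were lower in every tubule than in whole kidney, with medians of 1.68, 3.98 and 0.26 TPM. Replicate 3 of m3 stood apart, with 1441 TPM of thick ascending limb markers where the other tubules had at most 55.8 TPM. It also had 189 TPM of connecting tubule markers, where the other tubules had at most 14.6 TPM and whole kidney at least 2716 TPM. Set values without it are given for Cish, Socs2, Bcl6, Gadd45g and Epor.

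Motifs for STAT5 near these genes are shown because Cish, Socs2 and Bcl6 were the members whose sets did not overlap. The motif searched was TTCNNNGAA, which is its own reverse complement, in the 250 bases before each RefSeq transcription start (build GRCm38.p6). RefSeq windows were matched for 8 of the 9 genes, with 14 starts; Socs2 was the gene without one. At least 1 match was present in 7.02% of the 32851 windows in the table. The second listed Bcl6 start (minus strand) held 3 matches, which 0.0274% of windows reached, and the first listed Bcl6 start, a Socs3 start and 1 of 3 Prlr starts held 1 each. The Cish window held none before the start and a pair on transcript bases 1 and 12, counted only when the search was widened to the 50 bases after the start, a choice made after seeing the data. With that wider window of 300 bases, at least 2 matches were present in 0.457% of windows. Matches are in capitals below, each written in the direction of the gene. The positions are chr9:107296654-107296683 (plus strand) for Cish, then, on the minus strand, chr16:23981433-23981461, chr16:23981387-23981415 and chr16:23981353-23981381 for the second Bcl6 start, chr16:23988952-23988980 for the first, chr11:117969502-117969530 for Socs3 and, on the plus strand, chr15:10223786-10223814 for Prlr.
Cish pair at the start: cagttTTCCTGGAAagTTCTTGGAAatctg
Bcl6 second start, 168 bases before: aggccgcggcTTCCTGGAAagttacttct
Bcl6 second start, 122 bases before: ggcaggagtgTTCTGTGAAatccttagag
Bcl6 second start, 88 bases before: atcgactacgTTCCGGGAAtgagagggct
Bcl6 first start, 118 bases before: agcaaattagTTCTCAGAAttccagaggc
Socs3, 154 bases before: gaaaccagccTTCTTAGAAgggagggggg
Prlr, 110 bases before: gcaaaatgagTTCTAGGAAtaagggatat
The starts of Ghr, Jak2, Stat5a and Stat5b held no match in these windows. A match is a string of letters and not a measured binding site. The Cish pair lies in a part annotated as untranslated region in GENCODE M21, and the other matches do not. GENCODE M21 places the Cish start further upstream, at chr9:107296026, so the bases searched before its RefSeq start lie within the annotated gene. The same holds for Socs3, whose gene on the minus strand reaches chr11:117970047. For both genes the bases before the GENCODE start were not searched.

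Cish, which encodes a SOCS-family inhibitor of receptor signalling, differed most in level between the sets. It was at 3.92, 5.76, 3.56 and 5.37 TPM in replicates 1 to 4 of m1. In m2 it was at 11.9, 11.8, 14.3 and 12.4 TPM. In m3 it was at 99.8, 93.3, 89.3 and 91.7 TPM. The sets did not overlap, and the mean of m3 was 20.1 times that of m1 and 7.44 times that of m2. Within a set the tubules were close to each other: the coefficient of variation (CV, the SD as a percent of the mean) was 23.1% in m1, 9.17% in m2 and 4.80% in m3. Without the m3 tubule that carried thick ascending limb markers, the m3 mean was 95.0 ± 4.28 TPM (SD, n = 3).

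Socs2, which encodes the SOCS protein that limits growth hormone signalling and body growth, was also highest in m3 but lowest in m2. Its values were 18.2, 24.1, 15.9 and 10.4 TPM in m1. The m2 tubules held 6.24, 6.46, 4.11 and 4.23 TPM. In m3 the values were 26.6, 32.3, 32.8 and 29.5 TPM. Again no library of one set reached the range of another, with m3 at 5.76 times and m1 at 3.26 times the m2 mean. The order of the sets was therefore m1, m2, m3 for Cish and m2, m1, m3 for Socs2, from low to high. Without the third m3 tubule the Socs2 mean of m3 was 29.5 ± 2.87 TPM (SD, n = 3).

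Bcl6, the repressor, had the opposite order to Cish. It was at 11.0, 9.36, 9.30 and 12.9 TPM in m1. In m2 it was at 2.99, 3.02, 2.78 and 1.94 TPM, and in m3 at 1.02, 1.27, 0.90 and 1.26 TPM. The m1 mean was 9.56 times the m3 mean and 3.97 times the m2 mean, and the m2 mean 2.41 times the m3 mean. Without the third m3 tubule the Bcl6 mean of m3 was 1.18 ± 0.14 TPM (SD, n = 3). The sets were apart in every library, with a CV between 15.9% and 18.9% within them. Of the 9 genes, these 3 had sets that did not overlap; 0.69% of the 11300 genes whose tubule mean reached 1 TPM had this property, and since the genes were chosen on this contrast nothing is read from the count.

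Socs3, the feedback inhibitor of IL-6-type cytokine signals, was near 0 in the tubules. It was listed at 0.01, 0.00, 0.00 and 0.09 TPM in m1, at 0.22, 0.03, 0.04 and 0.12 TPM in m2 and at 0.25, 0.16, 0.40 and 0.32 TPM in m3. These values are too low for a statement on sets. In whole kidney it was at 1.60, 2.09 and 2.24 TPM, above every tubule. Of the tested genes, which do not include Socs3, 32% were likewise above every tubule. Socs3 was under the filter of 1 TPM and entered only the alternative without a filter, so no p-value is given. The difference there was -1.39 ± 0.11 on the log2(TPM + 1) scale, PTS2 minus whole kidney (SE). In these bulk samples fewer cells of a type and less RNA per cell cannot be told apart.

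**Figure D1:**
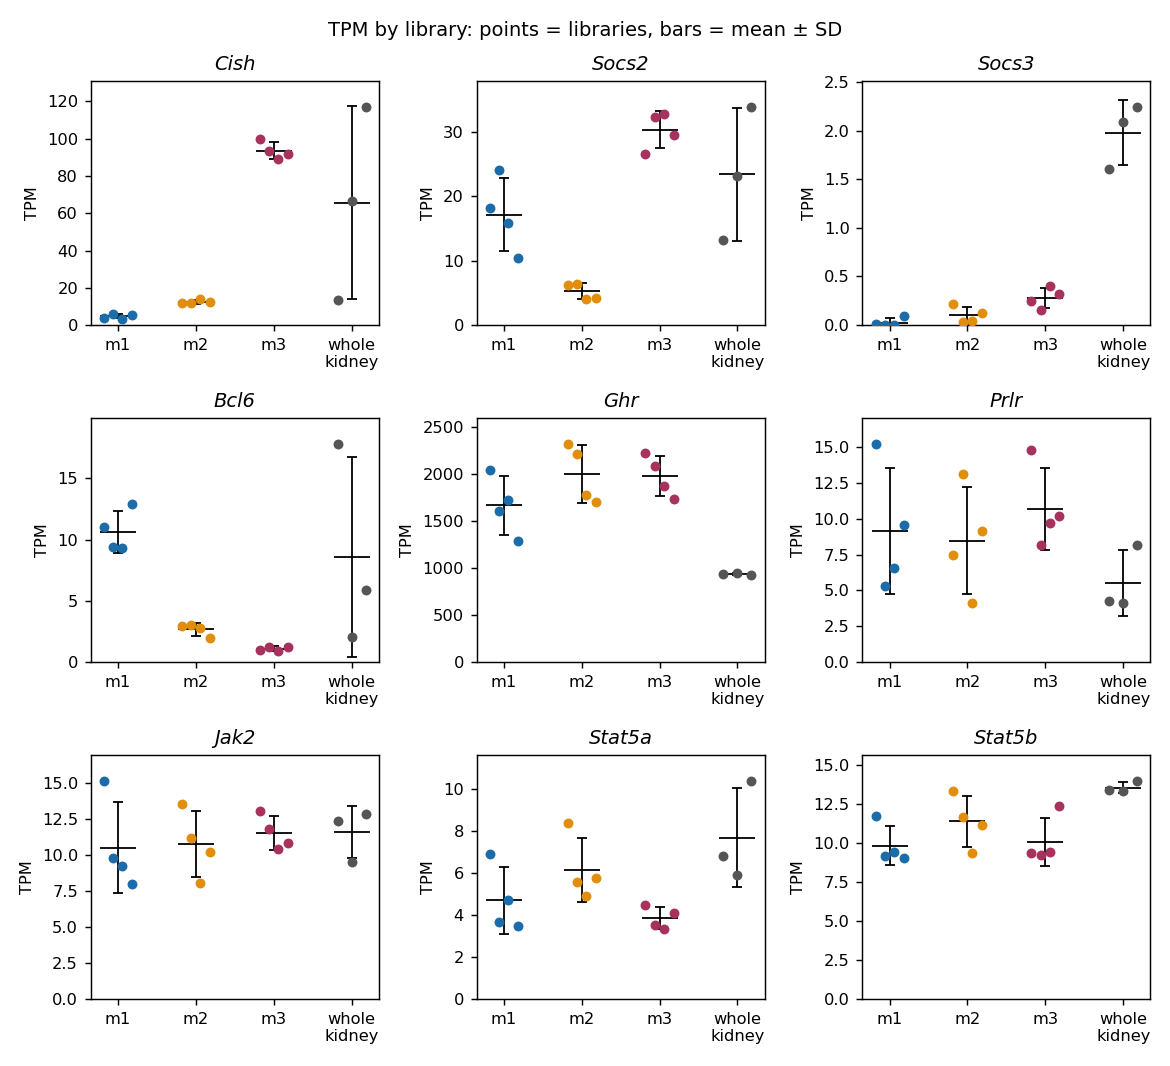
TPM (linear axes from 0) of the 9 genes in each library of tubule sets m1, m2 and m3 (n = 4 each) and whole kidney (n = 3). Points are libraries and bars are mean ± SD. Cish, Socs2 and Bcl6 separate the 3 sets without overlap, while the whole kidney libraries of the same genes are spread over a range up to 8.65-fold wide. Ghr is higher in all 12 tubules than in whole kidney.

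The same 3 feedback genes were also the most uneven between the whole kidney libraries, in which Cish was at 13.5, 66.5 and 117 TPM, an 8.65-fold range. Bcl6 was at 17.8, 2.08 and 5.89 TPM, an 8.54-fold range. Socs2 was at 13.2, 23.1 and 33.8 TPM, a 2.57-fold range. The library with the least Cish and Socs2 was thus the one with the most Bcl6, whereas the library with the most Cish was intermediate for Bcl6. Among 13334 genes whose kidney mean reached 1 TPM, 7.66% had a highest library at least 2-fold the lowest, and 1.41% had a range as wide as that of Bcl6; of the 9 pathway genes, 3 passed 2-fold, a limit chosen after seeing the values. Proximal marker sums were even in the same libraries, at 8940, 9886 and 9053 TPM, while erythroid markers were at 510, 234 and 219 TPM and lymphocyte markers at 0.98, 0.73 and 0.20 TPM. Principal cell markers were at 491, 560 and 760 TPM and S1 markers at 699, 741 and 780 TPM. Both had the library order of Cish and Socs2, which no other marker sum had. S3 markers were at 1176, 1209 and 935 TPM. Whether those cell types had a part in the spread was not tested. With 3 libraries there is no test of this spread.

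**Figure D2:**
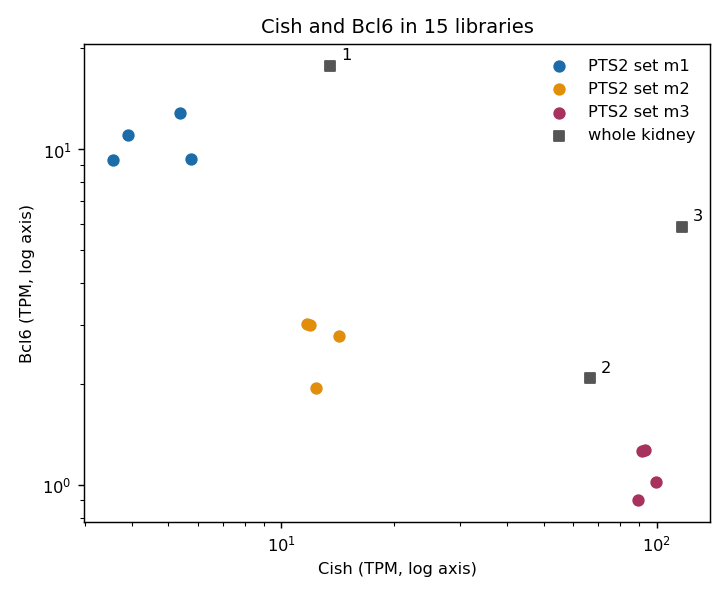
Cish against Bcl6 in TPM, both on log axes, for the 12 tubules (circles, coloured by set) and the 3 whole kidney libraries (squares, numbered by replicate). The m1 tubules sit at low Cish and high Bcl6, with Bcl6 between 9.30 and 12.9 TPM, and the m3 tubules at high Cish and low Bcl6. Whole kidney library 1 has the most Bcl6 of all 15 libraries with Cish in the range of m2, and libraries 2 and 3 have more Cish and less Bcl6 than library 1.

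The 3 sets together did not differ from whole kidney past the threshold for these feedback genes. The difference of PTS2 minus whole kidney on the log2(TPM + 1) scale was -1.34 ± 0.95 for Cish (SE, limma adjusted p = 0.249), -0.61 ± 0.55 for Socs2 (adjusted p = 0.366) and -0.72 ± 0.61 for Bcl6 (adjusted p = 0.340). For each of the 3 genes, 1 kidney library lay above every tubule and the others within the tubules' range. The genes came to notice through differences among the sets, and that spread is part of the error of this test. The choice of genes thus favoured a result short of the threshold, and nothing is read from it. These p-values do not show that the levels were alike.

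Ghr, the growth hormone receptor, was the most abundant of the 9 genes and the one called higher in tubules. Its values in m1 were 2048, 1606, 1731 and 1296 TPM. The m2 tubules held 2321, 2220, 1784 and 1703 TPM, and the m3 tubules 2227, 2085, 1881 and 1742 TPM. Whole kidney was at 935, 950 and 930 TPM, so that each of the 12 tubules lay above each kidney library. The tubule mean was 1887 ± 301 TPM (SD, n = 12), that of whole kidney 938 ± 10.4 TPM (SD, n = 3). On the log2 scale PTS2 exceeded whole kidney by 0.99 ± 0.14 (SE; adjusted p = 1.25e-05, limma). Of all 12039 genes tested, 51.2% passed this threshold, 9.68% as higher and 41.5% as lower in PTS2, and 5.76% had every tubule above every kidney library. Ghr ranked 67 among all genes in the tubules and 136 in whole kidney. General proximal markers did not move together: Slc27a2 had a tubule median of 9288 TPM against 4363 to 5131 TPM in whole kidney, Slc34a1 one of 3248 against 4444 to 4628 TPM, Lrp2 one of 92.9 against 98.9 to 105 TPM and Cubn one of 27.1 against 26.6 to 29.1 TPM.

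Prlr, the prolactin receptor, which signals through the same kinase and STAT5, was far lower. It ranged from 4.15 to 15.2 TPM in the tubules, with a mean of 9.43 ± 3.50 TPM (SD, n = 12), and was at 4.25, 4.10 and 8.14 TPM in whole kidney. Tubules and kidney overlapped, and the log2 difference of 0.66 ± 0.31 was not past the threshold (SE, limma adjusted p = 0.0814). It passed with median-of-ratios rescaling (adjusted p = 0.0148), with quantile normalization (0.000516), with 1 mean per set (0.0444) and without any of 3 single libraries: m1 replicate 2 (0.0469), m2 replicate 3 (0.0321) or whole kidney replicate 3 (0.0436). Per transcript length, Ghr was 200.1 times as abundant as Prlr in tubules and 171 times in whole kidney. Ghr made up 99.5% ± 0.168 (SD, n = 12) of both receptors in tubules, and in whole kidney the share was 99.4% ± 0.247 (SD, n = 3). The difference was 0.0848 percentage points (p = 0.490, adjusted over 2 measures 0.490, two-sided exact permutation test), and its sign turned without whole kidney replicate 3, to -0.0575.

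Jak2, the kinase that both receptors use, overlapped between tubules and kidney. It ranged from 7.97 to 15.1 TPM in the tubules (mean 10.9 ± 2.16, SD, n = 12) and was at 12.4, 9.52 and 12.9 TPM in whole kidney. The log2 difference was -0.09 ± 0.16 (SE, limma adjusted p = 0.686). Its sign depended on scaling: it was 0.18 with median-of-ratios rescaling (adjusted p = 0.332) and 0.47 with quantile normalization, where it passed (adjusted p = 0.00994).

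Stat5a and Stat5b, the pair of STAT5 genes, lie next to each other on chromosome 11 and have closely related coding sequences, so that the split of reads between them is uncertain. Stat5b ranged from 9.04 to 13.4 TPM (mean 10.45 ± 1.52, SD, n = 12) and was at 13.40, 13.32 and 13.96 TPM in whole kidney. Stat5a ranged from 3.36 to 8.37 TPM in tubules (mean 4.92 ± 1.53, SD, n = 12) and was at 6.81, 5.93 and 10.4 TPM in whole kidney. Both overlapped with kidney and had lower means in the tubules. The log2 difference was -0.36 ± 0.12 for Stat5b (SE, limma adjusted p = 0.0205) and -0.56 ± 0.22 for Stat5a (adjusted p = 0.0387). The median over all tested genes was -0.27, and the calls did not hold under other scalings: with median-of-ratios rescaling the values were -0.09 for Stat5b (adjusted p = 0.510) and -0.31 for Stat5a (adjusted p = 0.231), and with quantile normalization 0.17 and 0.12. Leaving out whole kidney replicate 3 gave -0.35 for Stat5a (adjusted p = 0.258). Stat5a made up 31.5% ± 4.33 (SD, n = 12) of the STAT5 sum in tubules and, in whole kidney, 35.7% ± 6.16 (SD, n = 3), which an exact permutation test did not separate (two-sided, p = 0.185, adjusted p = 0.369 over 2 measures).

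**Figure D3:**
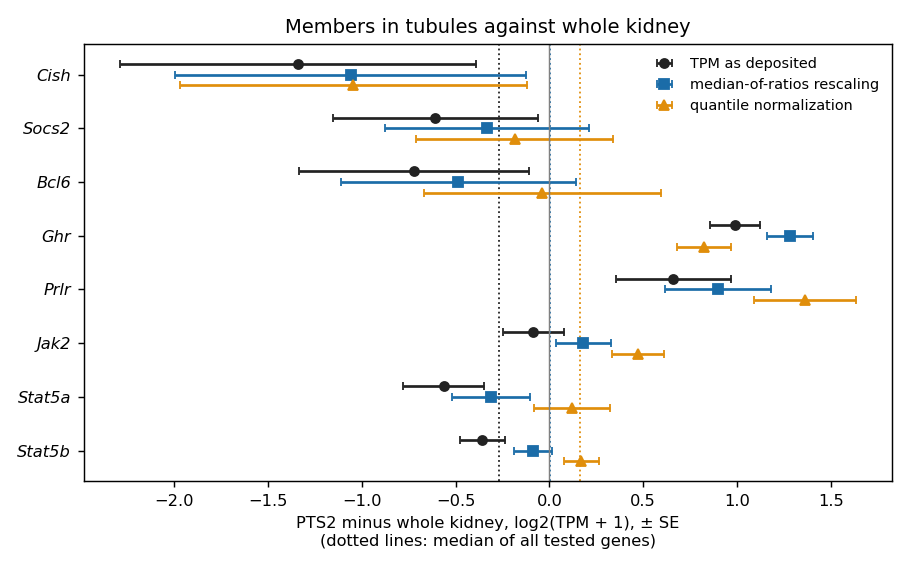
Difference of PTS2 minus whole kidney on the log2(TPM + 1) scale (x axis, ± SE) for the 8 genes that passed the filter, under TPM as deposited, median-of-ratios rescaling and quantile normalization. Dotted lines mark the median of all tested genes under each scaling. Ghr is at 0.82 or higher in all 3, while Stat5a, Stat5b and Jak2 change sign.

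Ordered by mean TPM in the tubules, Ghr was followed by Cish at 36.9, Socs2 at 17.6, Jak2 at 10.9, Stat5b at 10.45, Prlr at 9.43, Stat5a at 4.92, Bcl6 at 4.81 and Socs3 at 0.137 TPM. The places of Cish and Bcl6 hold for no single set, since their CV over the 12 tubules was 114% and 92.5%. Neighbours in the middle of the order were not separable: Jak2 exceeded Stat5b in 6 of 12 tubules. By contrast, the receptor and transducer genes varied less among sets. The highest set mean was 1.201 times the lowest for Ghr, 1.26 times for Prlr and 1.10 times for Jak2. It was 1.16 times the lowest for Stat5b and 1.59 times for Stat5a. For none of these genes were all sets apart, but for Stat5a every m2 tubule (lowest 4.92 TPM) lay above every m3 tubule (highest 4.48 TPM).

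Other genes of the pathway, 60 in 8 lists by function, were read from the same fits. The lists were chosen with earlier results of these data known. Their counts and p-values below therefore describe these libraries and are no independent test. Among the tubule sets 41 of them were tested and 4 passed (limma F test, adjusted p under 0.05), where 3.02% of all genes did, and 6 had an unadjusted p under 0.05. For single pairs of sets the share of all genes that passed was 0.54% for m2 minus m1 (0.301% higher, 0.239% lower), 3.17% for m3 minus m1 (2.23% and 0.938%) and 1.97% for m3 minus m2 (1.17% and 0.805%). Irs2, an adaptor of insulin and growth hormone receptors, was at 6.18, 2.75, 3.42 and 4.63 TPM in m1, at 14.2, 10.2, 11.2 and 9.86 TPM in m2 and at 23.94, 18.98, 22.36 and 22.79 TPM in m3. It was higher in m3 than in m1 by 2.17 ± 0.18 on the log2 scale (SE, limma adjusted p = 3.98e-05) and had the set order of Cish. Gadd45g, a growth arrest gene that cytokines induce, had the order of Socs2, ranging from 15.5 to 20.1 TPM in the m2 tubules, from 29.8 to 38.2 TPM in those of m1 and from 50.5 to 66.6 TPM in those of m3. Its log2 difference was 1.58 ± 0.12 between m3 and m2 (SE, limma adjusted p = 8.68e-06) and 0.73 between m3 and m1 (adjusted p = 0.00540). Without m3 replicate 3, its highest tubule at 66.6 TPM, the difference between m3 and m1 was 0.64 (limma adjusted p = 0.0182).

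Ifngr1, a subunit of the interferon gamma receptor, was higher in m3, at 46.0 TPM, than in m1, at 29.7 TPM, by 0.61 ± 0.11 on the log2 scale (SE, limma adjusted p = 0.0102). Igfals, the acid-labile subunit of circulating IGF complexes, was lower in m3, at 7.27 TPM, than in m1, at 13.99 TPM, with a log2 difference of -0.86 ± 0.16 (adjusted p = 0.0106). In whole kidney, Irs2 was at 6.53, 19.7 and 36.1 TPM and Gadd45g at 49.2, 54.7 and 128 TPM, lowest and highest in the same libraries as Cish. Igfals was even there, at 15.2, 13.3 and 14.2 TPM. No other SOCS gene, JAK, STAT, phosphatase, PIAS gene or BCL6 corepressor passed the F test among the sets, of 4, 7, 8 and 2 tested in those lists, at unadjusted p under 0.05 in 1 of them.

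**Figure D4:**
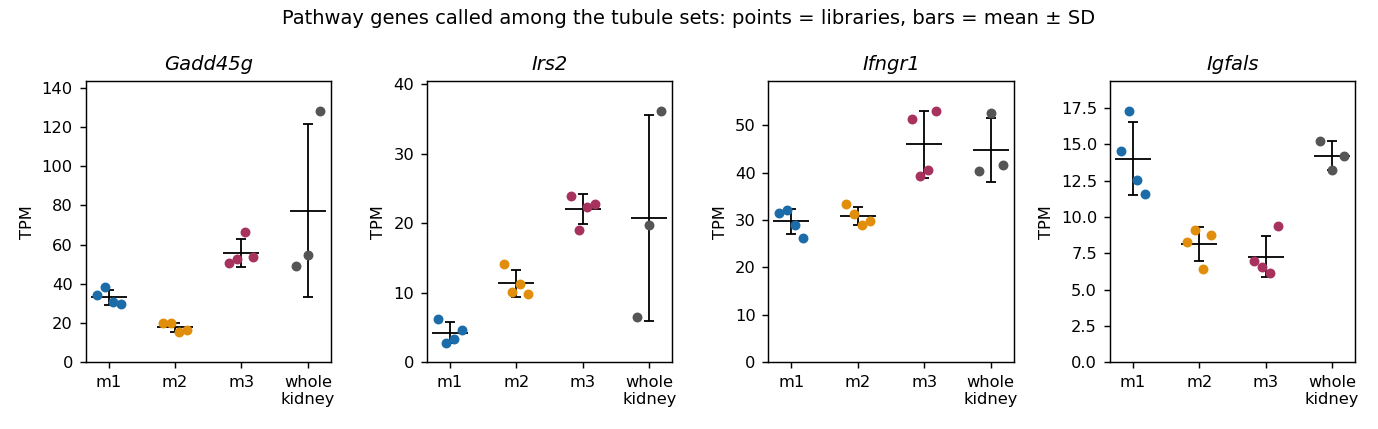
TPM (linear axes from 0) of the 4 listed pathway genes that passed the F test among tubule sets, in each library of m1, m2, m3 (n = 4 each) and whole kidney (n = 3). Points are libraries and bars are mean ± SD. Irs2 is lowest in m1 and highest in m3, and Gadd45g is lowest in m2 and highest in m3.

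Against whole kidney, 43 of the 60 listed genes were tested, of which 28 were lower in the tubules, 0 higher and 15 not past the threshold. Their median log2 difference was -0.56, beside -0.27 for all tested genes. With median-of-ratios rescaling 18 were lower, and with quantile normalization 15 were lower and 6 higher; 13 were lower under all 3 scalings. Il2rg and Igf1 passed the filter only through the kidney libraries, where they were high; without them 26 of 41 were lower, 11 of them under all 3 scalings, and the median was -0.54. Among the other JAKs and STATs, 6 of 7 were lower, with log2 differences of -1.36 for Stat2 and -1.14 for Stat3, mediators of interferon and of IL-6-type signals, both lower under each scaling. Of the target genes whose tubule mean reached 1 TPM, 6 of 8 were lower, led by Igfbp3 at -3.42, Ccnd1 at -3.36 and Ccnd2 at -2.91, also under each scaling. Igfbp3 encodes a carrier of IGF, and Ccnd1 and Ccnd2 encode cyclins of the G1 phase. Among the other SOCS genes 2 of 4 tested were lower, Socs5 by -2.32, the 1 that was lower under all 3 scalings. Adaptors were lower for 5 of 7 tested, phosphatases and PIAS genes for 4 of 8 and other receptors with a tubule mean of 1 TPM for 1 of 5, beside 41.5% of all tested genes. Under all 3 scalings this left 1 adaptor, Shc1, and 0 of the phosphatases, PIAS genes and those receptors. The endothelial and distal marker sums given above moved in the same direction, and their part in these differences was not tested. None of the ligands Gh, Prl, Epo, Lep and Il6 reached a mean of 1 TPM, and Gh was listed at 0 in all libraries.

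Genes with profiles like those of the feedback genes were ranked by the root mean square difference of standardized log2(TPM + 1) over the 12 tubules, in which 0 means the same profile and 2 its mirror image, among 8118 genes whose tubule mean reached 5 TPM. For Cish the closest were Car9 (0.263), Srsf2 (0.315), Coq10b (0.321), H1f0 (0.355) and Fmo5 (0.359). Car9, a carbonic anhydrase, went from a mean of 21.4 TPM in m1 to 30.5 in m2 and 53.8 in m3. Coq10b, a coenzyme Q binding protein, was at 42.8, 53.6 and 73.5 TPM, and its whole kidney values of 39.3, 58.7 and 86.8 TPM had the order of Cish. The other 4 did not have that kidney order, which 13.9% of these genes had. The most unlike were Sgk1 (1.99), 8430408G22Rik (1.98) and Ddc (1.98).

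For Socs2 the closest profile was that of Gadd45g (0.204), followed by Tgm1 (0.315), Cbfb (0.359) and A430005L14Rik (0.390). For Bcl6 the closest were Stx18 (0.266), Fam13a (0.305), Spsb4 (0.311), Atp6v0d1 (0.331) and Tcea3 (0.399). Spsb4, which encodes a protein with a SOCS box, had set means of 43.7, 28.1 and 22.8 TPM in m1, m2 and m3, respectively, and was at 56.4, 36.5 and 31.9 TPM in whole kidney. Between the members, Cish and Bcl6 were nearly mirror images (1.95), and Ghr was closest to Jak2 (0.647). These points share libraries and sets, so the ranking is a description.

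Within the sets, Ghr went with the replicate number of the labels, whose meaning is not given. It was highest in replicate 1 and lowest in replicate 4 of each of the 3 sets. The mean was 2199 ± 138 TPM in tubules numbered 1 and 1580 ± 247 TPM in tubules numbered 4 (SD, n = 3 each). With the set as a term, number 4 minus number 1 was -0.49 ± 0.08 on the log2 scale (SE, limma adjusted p = 0.00711), where 4.76% of all genes passed (1.69% higher, 3.07% lower), and the F test over the 4 numbers gave an adjusted p of 0.0399, where 2.71% passed. With genes of any level tested the adjusted p was 0.0624, and with no set term 0.132, so the call was lost in both. Jak2 and Stat5a were likewise highest in the first replicate throughout, Jak2 with 15.1, 13.5 and 13.1 TPM, but the Jak2 log2 difference of -0.49 between numbers 4 and 1 was not past the threshold (limma adjusted p = 0.0772). The share of all genes highest in the first replicate of each set is not given here, so this pattern need not be particular to the pathway. Segment markers moved with the number: the S3 sum was 3533, 3699 and 3568 TPM in replicates 1 and 2011, 2579 and 2679 TPM in replicates 4 of m1, m2 and m3, and the S2 sum 704, 368 and 370 TPM against 1149, 892 and 1024 TPM. Their part in the Ghr difference was not tested. For Cish, Socs2, Bcl6, Prlr, Stat5a and Stat5b the contrast of numbers did not pass, with adjusted p between 0.184 and 0.974.

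**Figure D5:**
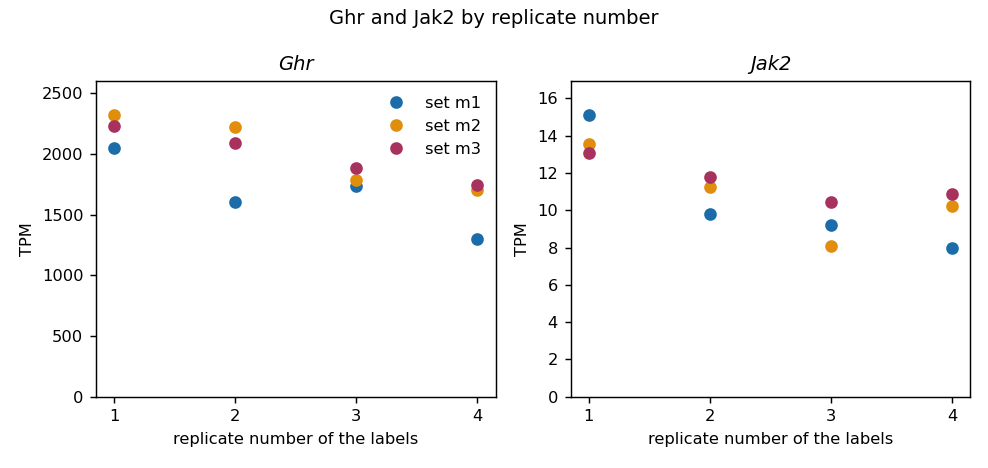
TPM (linear axes from 0) of Ghr and Jak2 in the 12 tubules by the replicate number of the labels (x axis), coloured by set. Ghr is highest at number 1 and lowest at number 4 in all 3 sets, and Jak2 is highest at number 1.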

How the data were processed

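RNA-Seq was measured in 12 single-tubule and 3 whole kidney libraries, amplified to cDNA with a low-input kit, per the labels' protocols. Values are TPM, in a single table deposited by the authors. STAR 2.5.1b, RSEM 1.2.31 and the build GRCm38.p5 are named in the submitters' processing notes without a role; the annotation release is not given in the sources used here. Each library sums to 1000000, depth is unknown, and no interval or count test is given. No pair of libraries was identical (0 pairs). Of the table's 19 value columns, 4 hold summary values of the authors and were left out.

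Groups follow each sample's description. log2(TPM + 1) was tested with limma 3.58.1 in R 4.3.3 (eBayes with trend, Benjamini-Hochberg over all genes tested, threshold 0.05) for genes whose mean reached 1 TPM: 12039 against whole kidney, with the set as a correlated block (correlation 0.0669), and 11300 among sets and replicate numbers. A log2 difference on this scale understates changes of low genes. The fits were run on simulated data with independent libraries and no differences among groups besides those put in. Such data lack the set and replicate structure seen here, so that run does not show how the fits behave with it. Single measures used exact permutation tests (455 arrangements, smallest p 0.0022). Descriptive values used pandas 2.3.3 and scipy 1.17.1 under Python 3.11.15, and figures matplotlib 3.10.9. Promoter windows came from RefSeq (GRCm38.p6).

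The members and lists were chosen with earlier results of these data known. Named genes were the 9 members, up to 3 called genes per list, direction and comparison, and the genes nearest in profile to Cish, Socs2 and Bcl6; some genes that this rule names are not reported here. Alternatives were other pseudocounts, filters, scalings, blocks and leaving out each library.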

Additional observations from a re-analysis of the deposited data

Results flagged for a closer look

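For the 9 genes, the 4 called pathway genes and both shares, the most extreme tubule of each set of 4 was checked for a gap to the next one that took up most of the set's range. Of 45 such groups 3 stood out, where chance gives about 2.25. Stat5b was at 12.39 TPM (12.4) in replicate 4 of m3, where the next library had 9.43 TPM, and at 11.74 TPM (11.7) in replicate 1 of m1, where the next had 9.46 TPM. Socs3 was at 0.09 TPM in replicate 4 of m1, where the next had 0.01 TPM.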

How the results depend on the processing

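Of 751 values recomputed under alternatives, 684 kept their direction and their side of the threshold or moved within their limits. The Ghr difference between tubules and kidney kept its call throughout, from 0.82 with quantile normalization to 1.28 with median-of-ratios rescaling. The count of genes called against kidney was 6161, and 9399 without a filter and 3113 at a mean of 10 TPM, where other numbers of genes were tested; leaving out single libraries gave 4761 to 6712. The percent of calls that were higher was 18.9%, and 50.7% and 66.2% under median-of-ratios and quantile scaling, where the median of all genes was 0.00 and 0.16. Among sets the count was 341, and 196 without a filter; leaving out single libraries gave 197 to 563, lowest without m3 replicate 1 and highest without m1 replicate 1, with 220 without m2 replicate 2, 226 without m3 replicate 2 and 209 without m3 replicate 3. Listed genes called among sets numbered 4, and 3 to 5 with single libraries left out. For replicate numbers the count was 306, 0 without a filter or without the set term, and 75 to 507 with single libraries left out, lowest without m1 replicate 4 and highest without m2 replicate 2, and between 108 and 201 without m1 replicate 1, m2 replicates 1 or 4 or m3 replicates 1, 2 or 4. The cause was not tested.

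Same-numbered tubules had a mean correlation of deviations of 0.143 (12 pairs) and other pairs -0.0481, and 9 of 12 tubules correlated best with one of their own number. Not every same-numbered tubule pair exceeded 0.1 (lowest 0.0254, replicates 3 of m1 and m2), so the numbers were not taken as pairs. This rule does not show that pairing was absent, and the main fits among sets left any such structure in their error. Kidney and tubules of the same number had a mean of -0.0119. With the replicate block, 888 of 11300 genes passed among sets and 4 listed genes, and 6292 against kidney, with no member's call against kidney changed.

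Signs turned for Jak2 against kidney under median-of-ratios (0.18) and quantile scaling (0.47), and under quantile scaling for Stat5a (0.12), Stat5b (0.17) and the Ghr share (-0.214 percentage points; -0.0575 without whole kidney replicate 3). Leaving out single libraries gave -0.0575 to 0.162 for that share and -6.68 to -0.775 for the Stat5a share. Calls were also lost for Stat5a without a filter (adjusted p = 0.0663), with 1 mean per set (0.0577) and without m2 replicate 3, m3 replicate 2, m3 replicate 3 or whole kidney replicates 1 or 3 (up to 0.258). For Stat5b they were lost without any one kidney library (up to 0.0771). For number 4 minus 1, Bcl6 turned to 0.033 and 0.10 under median-of-ratios and quantile scaling and to 0.033 and 0.20 without m2 replicate 1 or 4 (range -0.19 to 0.20). Stat5b turned to 0.017 under quantile scaling and to 0.0049 and 0.033 without m1 replicate 1 or 4 (range -0.22 to 0.033). With a pseudocount of 0.1, set differences were wider: 4.33 for Cish between m3 and m1, and for Bcl6 -1.96, -3.15 and -1.19 for m2 minus m1, m3 minus m1 and m3 minus m2. TPM keep no depth, so differences among values near 0, such as Socs3 in tubules, cannot be weighed.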

Other observations

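Cytokine receptors other than Ghr and Prlr differed in how far they reached the tubules. Lifr, the receptor of leukemia inhibitory factor, had set means of 28.1, 30.9 and 32.7 TPM (m1 to m3) and a kidney mean of 28.3 TPM, and tubules and kidney differed by 0.08 on the log2 scale (limma adjusted p = 0.735). Its signalling partner Il6st was at 21.1, 26.1 and 29.1 TPM and 31.8 TPM (adjusted p = 0.172). Epor, the erythropoietin receptor, was at 4.03 TPM in whole kidney and at 0.0275, 0.0375 and 0.198 TPM in the sets (0.0733 TPM in m3 without replicate 3, the tubule with thick ascending limb markers), and Lepr, the leptin receptor, at 3.99 TPM and at 0.103, 0.07 and 0.19 TPM; both were under the filter of 1 TPM. Il2rg, the common gamma chain of lymphocyte cytokine receptors, ranged from 0.05 to 1.81 TPM in tubules and from 5.84 to 6.59 TPM in whole kidney; it passed the filter only through the kidney libraries, so no test is given. Of the 41 listed genes tested by replicate number, 0 passed the F test (limma; 6 had an unadjusted p under 0.05), and 1, Lifr, was lower at number 4 than at number 1, with a log2 difference of -0.65 (limma adjusted p = 0.0183).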
